A study of Mus musculus with 6 samples.

Results

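The interferon regulatory factors (IRFs) were compared in mouse leukaemia cells with and without induced deletion of Chaf1b. The genes were taken by symbol: Irf1, Irf2, Irf3, Irf4, Irf5, Irf7, Irf8 and Irf9, which encode DNA-binding IRFs, and Irf2bp2, whose product binds IRF2. All 9 symbols were found among the 35869 listed per library, and 8 of them were tested. Irf4 was left out by the filter on low values.

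The cells were retrovirally MLL-AF9-transformed acute myeloid leukaemia cells of mouse, MLL-AF9 being a fusion oncogene of human leukaemia. They carried floxed alleles of Chaf1b, a subunit of the histone chaperone CAF-1, and the ligand-activated recombinase CreERT2. The 3 KO libraries came from cells given B-estradiol, and the 3 WT libraries came from floxed, CreERT2-carrying clonal control cells given ethanol as vehicle. Lysis was 48 hours after induction. All cells grew in medium with SCF, IL6 and IL3 at 100, 50 and 20 ng/mL. KO and the ligand go together in this design, so that deletion and B-estradiol cannot be told apart. The labels do not say how many clones were used or whether replicates were separate cultures, so the p-values measure no more than how far these libraries scatter, which could be a technical scatter.

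IRFs share an amino-terminal DNA-binding domain with conserved tryptophans and recognise GAAA repeats, as in the interferon-stimulated response element (ISRE). IRF3 and IRF7 are phosphorylated when cells sense foreign nucleic acid and then switch on interferon genes, and IRF9 is the DNA-binding part of ISGF3, the complex that carries the interferon signal to target genes. IRF8 and IRF4 lack strong DNA binding of their own, act largely with partners such as PU.1 and BATF, and in blood formation IRF8 favours monocytes and dendritic cells over granulocytes.

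Of the family, Irf8 fell in KO. The other 7 tested genes were not called. Irf7 differed more between WT libraries than between the groups. The values are TPM, a transcript abundance scaled for gene length and to the same total in each library, and a gene was called at an adjusted p under 0.05 in limma. Of all 13575 tested genes 19.0% were called, 12.9% higher and 6.11% lower in KO, and of the 8 tested members 1 (12.5%) was called. The median log2 fold change of the members was -0.02, against 0.01 over all tested genes. Fold changes are differences of mean log2(TPM + 1), KO minus WT, which understate changes of weakly expressed genes.

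The libraries were not equally alike. Chaf1b was at 17.7, 14.4 and 14.2 TPM in KO replicates 1 to 3, against 48.6 to 50.6 TPM in the WT libraries. Across genes, which are no independent replicates, Pearson's r of log2 values was 0.998 between KO replicates 2 and 3 and also between WT replicates 2 and 3. It was 0.991 and 0.992 between KO replicate 1 and the other KO libraries, and 0.984 and 0.986 between WT replicate 1 and the other WT libraries. The column header of WT replicate 1 carries a note of a replacement that the other headers lack. Without WT replicate 1, 35.7% of genes were called, and without both first replicates 55.8% (28.4% higher, 27.3% lower). Without KO replicate 2, KO replicate 3, WT replicate 2 or WT replicate 3 limma called 109, 0, 25 and 15 genes. The calls given below were made with all 6 libraries unless stated. Without KO replicate 3, 3381 genes had an unadjusted p under 0.05. The depth behind each TPM is unknown, since TPM keeps no record of it.

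Promoter sequence is shown for Irf8, the member that was called, and for Irf1 and Irf2, the other members with a match to an interferon-response motif. Each is the 250 bases before an annotated RefSeq start (GRCm38.p6, the assembly that mm10 names), 5′ to 3′ on the plus strand, with motif matches in capitals. The windows are chr8:120736108-120736357 for Irf8, chr11:53769764-53770013 for Irf1 and chr8:46739495-46739744 for Irf2.
Irf8: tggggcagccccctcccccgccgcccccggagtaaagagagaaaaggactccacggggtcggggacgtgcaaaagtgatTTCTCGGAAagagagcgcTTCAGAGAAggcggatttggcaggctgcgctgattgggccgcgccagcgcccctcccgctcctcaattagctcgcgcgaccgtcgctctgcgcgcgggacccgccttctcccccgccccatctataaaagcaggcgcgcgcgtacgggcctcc
Irf1: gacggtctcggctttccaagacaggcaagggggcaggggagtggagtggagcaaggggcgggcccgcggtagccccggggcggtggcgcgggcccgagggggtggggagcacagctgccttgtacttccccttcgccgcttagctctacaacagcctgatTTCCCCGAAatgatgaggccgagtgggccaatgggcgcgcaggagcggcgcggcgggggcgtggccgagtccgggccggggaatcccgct
Irf2: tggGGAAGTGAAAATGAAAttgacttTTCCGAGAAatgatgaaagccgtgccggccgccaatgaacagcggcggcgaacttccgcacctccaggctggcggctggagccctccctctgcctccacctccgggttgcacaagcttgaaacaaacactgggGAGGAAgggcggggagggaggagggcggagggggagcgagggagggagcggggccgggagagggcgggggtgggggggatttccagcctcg

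All 9 members had at least 1 window in the RefSeq table, 12 windows in all, and 4 motifs were searched on both strands. The STAT site TTCNNNGAA was found in the windows of 3 members, 2 times for Irf8 (171 to 163 and 153 to 145 bases before the start) and 1 time each for Irf1 and Irf2. It was present in 7.02% of all 32851 promoter windows. The ISRE core, searched as GAAA, any 2 bases and GAAA again and present in 2.98% of windows, was found for Irf2. There it overlaps a match of the ETS-IRF composite element, searched as GGAA, any 2 bases and GAAA and present in 2.3% of windows. The PU.1 core GAGGAA was found for Irf2, Irf4 and Irf9 and is common, at 23.3% of windows. These matches describe the letters of the windows and are not mapped binding sites.

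Irf8, the factor of the monocyte and dendritic lineages (chromosome 8, 120736358 to 120756694, mm10), was at 27.2, 14.5 and 15.9 TPM in KO replicates 1 to 3, against 46.6, 37.8 and 39.5 TPM in WT replicates 1 to 3. The groups did not overlap, as was true of 42.8% of all tested genes. KO replicate 1 was 1.79 times the mean of the other KO libraries. The mean was 19.2 ± 6.96 TPM in KO and 41.3 ± 4.67 TPM in WT (SD, n = 3 each), so that KO held 46.5% of the WT level. The log2 fold change was -1.11 (SE 0.23, 95% interval -1.67 to -0.56, limma adjusted p = 0.0276). An exact permutation test, two-sided, gave p = 0.1, the smallest that 3 against 3 libraries allow. The call was lost, at log2 fold changes of -0.95 to -1.17, when any of 4 libraries was left out. The adjusted p was then 0.105 for KO replicate 2 and 0.124 for KO replicate 3. It was 0.0804 for WT replicate 2 and 0.0887 for WT replicate 3, and testing all genes unfiltered gave 0.105 at -1.11. In RNA from a cell population, fewer cells that express a gene and less of its RNA per cell cannot be told apart.

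**Figure D1:**
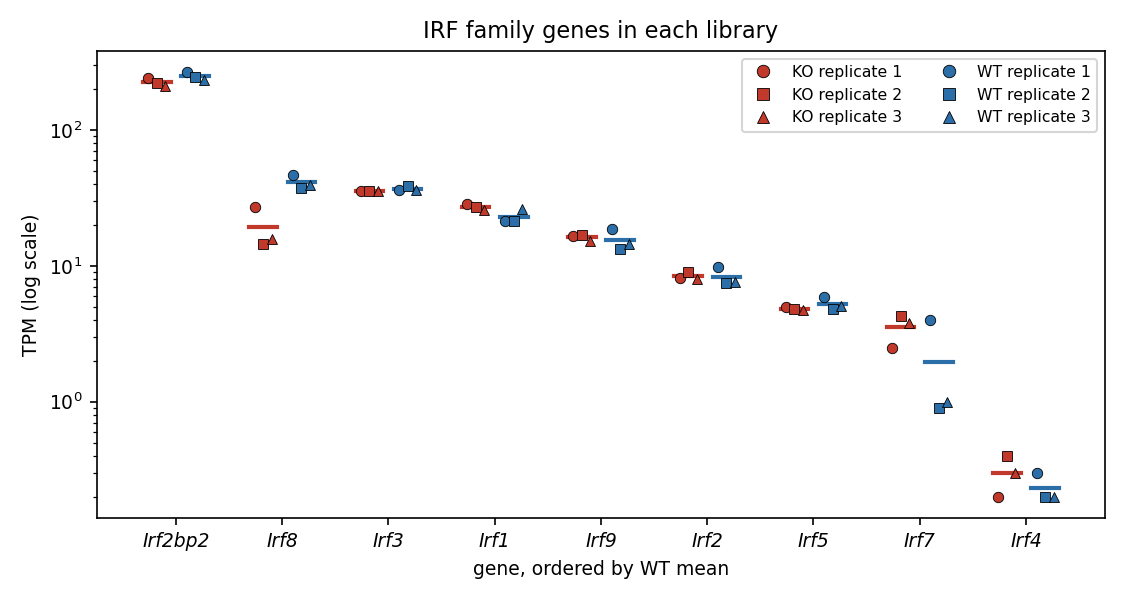
TPM of the 9 genes on a log axis, KO libraries left of WT libraries for each gene, with marker shapes for replicates and a line at each group's mean. The 3 KO values of Irf8 (14.5 to 27.2 TPM) lie below its WT values (37.8 to 46.6 TPM), and WT replicate 1 lies with the KO libraries for Irf7.

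Irf4, the closest relative of Irf8 and a factor of lymphocytes and dendritic cells, was close to the lower end of the scale. It was at 0.2, 0.4 and 0.3 TPM in KO replicates 1 to 3, against 0.3, 0.2 and 0.2 TPM in WT replicates 1 to 3. These values overlap and lie within a few steps of 0.1 TPM, to which the deposited values were rounded, so a difference of that size could not be resolved.

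Irf8 took a smaller part of the IRF transcripts in KO. Of the summed TPM of the 8 Irf genes, Irf8 made up 22.0, 12.8 and 14.5% in KO replicates 1 to 3, against 32.6, 30.4 and 30.3% in WT replicates 1 to 3. Irf1 made up 23.6 ± 0.58% in KO and 17.4 ± 2.57% in WT (SD, n = 3 each), with no overlap. The Irf9 share did not overlap either, at 14.1 ± 0.82% in KO and 11.7 ± 1.19% in WT. These 3 shares gave an exact two-sided permutation p of 0.1, the smallest that this design allows, and shares of 1 total are not independent of each other. The ratio of Irf8 to Irf1 TPM was 0.954, 0.531 and 0.619 in KO replicates 1 to 3, against 2.17, 1.77 and 1.50 in WT replicates 1 to 3. In every KO library Irf1 was thus above Irf8, and in every WT library it was below. The summed TPM of the 8 genes was 115 ± 7.38 in KO and 133 ± 9.48 in WT.

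**Figure D2:**
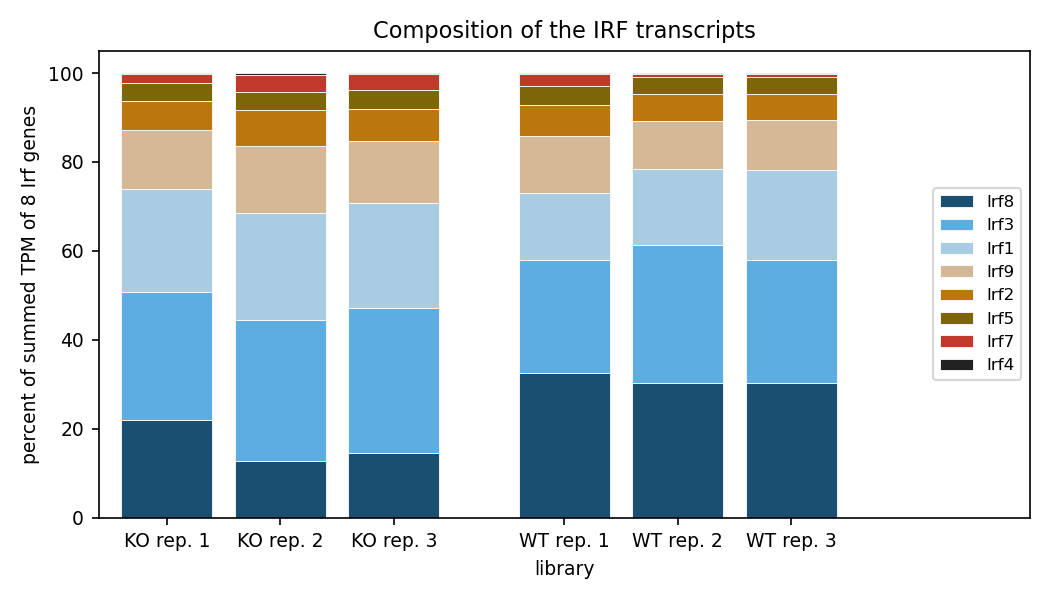
Share of each of 8 Irf genes in their summed TPM, 1 bar per library, KO libraries on the left and WT libraries on the right. The Irf8 share is 12.8 to 22.0% in KO and 30.3 to 32.6% in WT.

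Levels of TPM were set in order within each group. In KO the order of means was Irf2bp2, Irf3, Irf1, Irf8, Irf9, Irf2, Irf5, Irf7 and Irf4, where the values of Irf1 and Irf8 and those of Irf8 and Irf9 overlapped. In WT it was Irf2bp2, Irf8, Irf3, Irf1, Irf9, Irf2, Irf5, Irf7 and Irf4, where those of Irf8 and Irf3 overlapped. The place of Irf8 was rank 4 in KO and rank 2 in WT, and the other members kept their order relative to each other.

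The remaining IRFs that act without a viral signal, Irf1 and Irf2, were not called. Irf1, an activator induced by interferon-γ that drives antigen-processing genes (chromosome 11, 53770014 to 53778374), was at 28.5, 27.3 and 25.7 TPM in KO replicates 1 to 3, against 21.5, 21.3 and 26.3 TPM in WT replicates 1 to 3. The values overlapped through WT replicate 3 alone. The log2 fold change was 0.23 (SE 0.09, 95% interval 0.01 to 0.46, limma adjusted p = 0.124), and the adjusted p lay between 0.0798 and 0.578 over all alternatives. Irf2, which binds the same sites as IRF1 and can oppose it, averaged 8.37 ± 0.55 TPM in KO and 8.33 ± 1.36 TPM in WT (SD, n = 3 each). Its highest value, 9.9 TPM, was in WT replicate 1. The log2 fold change of Irf2 was 0.01 (95% interval -0.26 to 0.29, adjusted p = 0.946), a direction that turned to -0.02 with median-of-ratios scaling and to -0.11 with quantile normalization.

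Irf3 and Irf5, which are kept latent until a sensor or Toll-like receptor signals, also differed little. Irf3, the constitutive activator of interferon genes (chromosome 7, 44997648 to 45002848), was at 35.7, 35.7 and 35.9 TPM in KO replicates 1 to 3, against 36.2, 38.5 and 36.2 TPM in WT replicates 1 to 3. The groups did not overlap, as was true of 42.8% of all tested genes. The difference was small, with a log2 fold change of -0.05 (SE 0.05, 95% interval -0.16 to 0.07, limma adjusted p = 0.53). Irf5, which drives inflammatory cytokine genes downstream of MyD88, averaged 4.83 ± 0.15 TPM in KO and 5.27 ± 0.57 TPM in WT (SD, n = 3 each; log2 fold change -0.10, 95% interval -0.31 to 0.11, adjusted p = 0.431). In the GENCODE M21 annotation Irf3 overlaps Bcl2l12, Irf5 overlaps Tnpo3 and Irf7 overlaps Phrf1, each on the opposite strand. Irf9 overlaps Rnf31 on the same strand, and Irf8 overlaps the protein-coding model Gm20388 on the same strand. Irf1 overlaps Gm17334 on the opposite strand, and Irf2 and Irf2bp2 overlap other predicted models on the opposite strand. No source used here gives the strand setting of the counting, which makes the values of members with a neighbour on the opposite strand uncertain. No strand setting separates reads shared with a neighbour on the same strand, so the values of Irf8 and Irf9 are uncertain too. Gm20388 and Gm17334 had no row among the deposited values. Bcl2l12, Tnpo3, Phrf1 and Rnf31 were not called (log2 fold changes -0.15, -0.19, -0.16 and -0.15, adjusted p from 0.0668 to 0.214).

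Irf7, itself an interferon-stimulated gene whose product amplifies interferon production (chromosome 7, 141263183 to 141266499), was at 2.5, 4.3 and 3.8 TPM in KO replicates 1 to 3, against 4.0, 0.9 and 1.0 TPM in WT replicates 1 to 3. WT replicate 1 was 4.21 times the mean of the other WT libraries and lay within the KO range. With all 6 libraries the log2 fold change was 0.74 (SE 0.39, 95% interval -0.21 to 1.70, limma adjusted p = 0.216). Without WT replicate 1 Irf7 was called higher, with a log2 fold change of 1.20 (adjusted p = 0.0196), beside 21.6% of all tested genes called higher in that fit. Without both first replicates the log2 fold change was 1.37 (adjusted p = 0.0015).

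Other genes stood high in WT replicate 1 together with Irf7. Of 20 tested target genes of ISGF3 and IRF7, 7 were at least 2-fold above the mean of the other WT libraries there. So were 4 of 6 tested mature neutrophil markers, 3 of 4 cytokine targets of IRF5 and 3 of 5 monocyte and macrophage markers, against 3.93% of all tested genes. Isg15, a ubiquitin-like antiviral protein chosen after its values were seen, was at 5.9, 7.8 and 6.5 TPM in KO replicates 1 to 3, against 9.5, 2.2 and 3.2 TPM in WT replicates 1 to 3. The neutrophil surface marker Ly6g, chosen likewise, was at 13.8, 26.4 and 21.8 TPM in KO, against 62.0, 1.9 and 3.0 TPM in WT. The part of these genes' cells or signals in the Irf7 values was not tested.

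Irf9, the DNA-binding subunit of ISGF3 (chromosome 14, 55603985 to 55610030), was at 16.5, 16.9 and 15.3 TPM in KO replicates 1 to 3, against 18.6, 13.4 and 14.6 TPM in WT replicates 1 to 3. Its highest value was again in WT replicate 1, and the groups overlapped. The log2 fold change was 0.07 (SE 0.12, 95% interval -0.22 to 0.36, limma adjusted p = 0.702). The value was 0.20 without WT replicate 1 (adjusted p = 0.0654) and -0.02 without WT replicate 2.

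Irf2bp2, a transcriptional cofactor first described as a repressor bound to IRF2 (chromosome 8, 126588296 to 126593986), was the member with the highest TPM. It was at 243.9, 222.5 and 210.9 TPM in KO replicates 1 to 3, against 268.3, 244.9 and 236.0 TPM in WT replicates 1 to 3. The groups overlapped through KO replicate 1. The log2 fold change was -0.15 (SE 0.07, 95% interval -0.32 to 0.03, limma adjusted p = 0.20), and it was called lower without both first replicates (-0.15, adjusted p = 0.0386), in a fit that called 27.3% of all genes lower. Its paralogue Irf2bp1 fell, with 45.5 ± 5.69 TPM in KO and 59.5 ± 2.86 TPM in WT (SD, n = 3 each; log2 fold change -0.38, adjusted p = 0.0401), while Irf2bpl was at 17.4 ± 1.40 and 16.8 ± 4.48 TPM (adjusted p = 0.805).

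**Figure D3:**
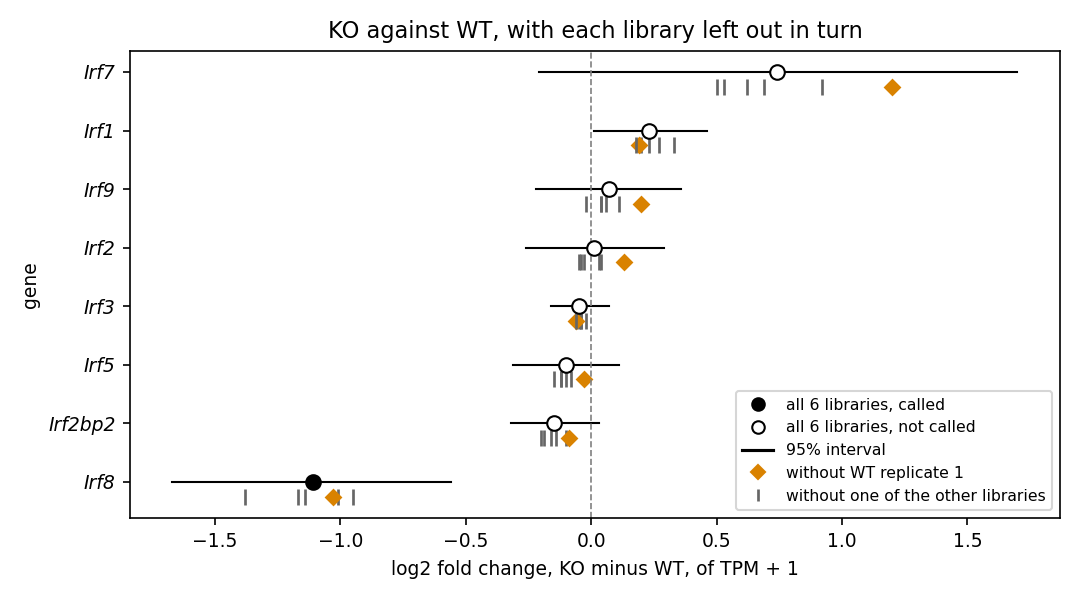
Log2 fold change (KO minus WT, of TPM + 1) of the 8 tested genes with 95% intervals, filled where called, and below each the values with 1 library left out (a diamond for WT replicate 1). Irf8 stays between -1.38 and -0.95, and Irf7 moves to 1.20 without WT replicate 1.

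Genes whose pattern over the 6 libraries was most like that of Irf8 were sought among 8779 tested genes averaging 5 TPM or more, predicted gene models left out. The measure was the root mean square difference between deviations of log2(TPM + 1) from each gene's mean. Pck2, the mitochondrial phosphoenolpyruvate carboxykinase, was nearest at 0.081. Its TPM was 56.9, 30.0 and 32.2 in KO replicates 1 to 3, against 85.9, 67.7 and 72.2 in WT replicates 1 to 3. Gss, which encodes glutathione synthetase, followed at 0.177 and Hsd17b1, a steroid dehydrogenase, at 0.202. In these 3 genes, as in Irf8, KO replicate 1 had the highest KO value and WT replicate 1 the highest WT value. Over 6 libraries in 2 groups such likeness reflects the group difference and the position of both first replicates, and is a description.

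Cell type markers were read beside Irf8, since IRF8 and IRF4 mark particular lineages. The cells had the markers of myeloid leukaemia cells: the progenitor list (Hoxa9, Hoxa10, Meis1, Kit, Myb, Cd34 and Flt3) summed to 793 to 824 TPM in KO and 859 to 871 TPM in WT, with Hoxa9 and Hoxa10 called lower. The 7 myeloid core genes summed to 4018 to 6202 TPM in KO, mostly Elane and Mpo, and to 1668 to 2003 TPM in WT, mostly Elane. Of the 7, 3 were called higher (Elane, Mpo and Cebpa), and Spi1, Csf3r, Itgam and Ptprc were not called. Of all tested genes 12.9% were called higher and 6.11% lower. Of 6 plasmacytoid dendritic cell markers 4 (Siglech, Ccr9, Spib and Klk1) were at 0 in all 6 libraries. The other 2 were detected and not called. Tcf4 averaged 5.20 TPM in KO and 4.67 TPM in WT, and Cox6a2 averaged 7.37 TPM in KO and 10.0 TPM in WT. This list summed to 10.9 to 14.1 TPM in KO and 13.4 to 16.2 TPM in WT. Of 8 conventional dendritic cell markers 3 passed the filter, the MHC class II genes H2-Aa, H2-Eb1 and Cd74, all called higher. H2-Aa passed through KO alone, which fixed its direction. The conventional dendritic cell list summed to 12.2 to 22.1 TPM in KO and 2.4 to 4.4 TPM in WT, while Xcr1 and Clec9a were at no more than 0.3 TPM.

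The monocyte and macrophage list summed to 1295 to 1580 TPM in KO and 1088 to 1206 TPM in WT, mostly Ly6c2. Of its 5 tested genes 2 were higher, Ly6c2 and Cd14, beside 12.9% of all tested genes. Adgre1, Cd68 and Ccr2 were not called, with a log2 fold change of -0.36 for Ccr2. Csf1r did not pass the filter, and Mertk was at 0 in all 6 libraries. The mature neutrophil list summed to 303 to 689 TPM in KO, mostly S100a8, and to 57.6 to 261 TPM in WT. Of its 6 tested genes 2 were higher, and 6 without WT replicate 1, beside 21.6% of all tested genes in that fit. The B cell list summed to 26.5 to 32.0 TPM in KO and 17.0 to 20.7 TPM in WT, mostly Cd79b, with Ms4a1 and Ebf1 at 0 throughout. Its 2 tested genes, Cd79b and Cd79a, were higher (limma adjusted p = 0.0204 and 0.0452). Cd79a passed the filter through KO alone, which fixed its direction. T and NK cell markers summed to no more than 0.4 TPM in any library. Stromal and endothelial markers summed to 65.3 to 70.6 TPM in KO and 61.0 to 79.7 TPM in WT, mostly Pecam1. Of its 2 tested genes Col1a1 was higher, with 1.4, 2.8 and 2.2 TPM in KO replicates 1 to 3, against 0.6, 0.2 and 0.3 TPM in WT replicates 1 to 3 (limma adjusted p = 0.0180). Col1a1, too, passed the filter through KO alone, which fixed its direction. Cdh5, which was not tested, was at 0.5, 1.5 and 1.3 TPM in KO and listed at 0 in all WT libraries. The part of these cell types in the values of Irf8 was not tested.

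The genes that act upstream of IRFs were compared next. Of 13 genes of interferon receptors and their signalling 3 were higher, beside 12.9% of all tested genes. The other 10 were not called, and the median log2 fold change of the 13 was 0.18. Those higher were Usp18, a negative regulator of the interferon receptor, averaging 4.13 ± 1.50 TPM in KO and 1.17 ± 0.15 TPM in WT (SD, n = 3 each; limma adjusted p = 0.0242), Socs1, an inhibitor of JAK kinases, at 28.6 ± 0.70 and 21.1 ± 1.92 TPM (0.0197), and Ifnlr1, at 1.20 ± 0.17 and 0.53 ± 0.058 TPM (0.0234). The fold change of Ifnlr1 was 0.02 with quantile normalization. Ifnlr1 was under 1 TPM in every WT library, so the filter on low values fixed its direction. Stat2, a partner of IRF9, was at 18.8 ± 0.93 TPM in KO, against 15.9 ± 0.70 TPM in WT (SD, n = 3 each; limma adjusted p = 0.0502). Every KO value of Stat2 was above every WT value. Groups without overlap, in either direction, were seen in 42.8% of all tested genes and in 8 of the 13 genes of this list.

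Of 16 kinases and adaptors that activate IRFs, 15 were not called, and the median log2 fold change of the 16 was 0.03. The remaining 1 was higher, beside 12.9% of all tested genes. It was Ikbke, a kinase that phosphorylates IRF3 and IRF7, averaging 17.0 ± 0.69 TPM in KO and 12.9 ± 1.38 TPM in WT (SD, n = 3 each; limma adjusted p = 0.0334). Of 9 tested partners and coactivators 1 was higher, Ikzf1, which encodes the lymphoid factor Ikaros, averaging 9.10 ± 0.76 TPM in KO and 6.97 ± 0.15 TPM in WT (adjusted p = 0.0311). Spi1, which encodes PU.1, the partner of IRF8 and IRF4, averaged 133 ± 6.31 TPM in KO and 133 ± 16.2 TPM in WT (adjusted p = 0.983).

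The interferon genes themselves were hardly seen. None of the 21 listed genes passed the filter on low values, so that none was tested. In all 6 libraries 16 of the 21 were listed at 0, Ifnb1 and Ifng among them, or 20 if those that stayed under 1 TPM are counted too. Ifnz, which was chosen after its values were seen, reached 0.7, 0.9 and 1.0 TPM in KO replicates 1 to 3, against 0.3, 0.2 and 0.2 TPM in WT replicates 1 to 3. Genes of this cluster are near-identical copies, which leaves it uncertain how reads were split among them.

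Targets of interferon signalling were compared by the IRF known to drive them. Of 20 tested targets of ISGF3 and IRF7, Usp18 among them again, 9 were higher, beside 12.9% of all tested genes. The other 11 were not called. All 20 had positive fold changes, at a median of 0.56 on the log2 scale. Rsad2 and Oasl2 were under 1 TPM in every WT library and passed the filter through KO alone, which fixed their direction. Ifitm3, a membrane protein that blocks virus entry, averaged 889 ± 313 TPM in KO and 94.0 ± 49.9 TPM in WT (SD, n = 3 each; limma adjusted p = 0.0129), and Rsad2, which encodes the antiviral enzyme viperin, at 4.33 ± 1.70 and 0.50 ± 0.26 TPM (0.0152). Oasl2 and Parp14 were higher by 1.27 and 0.65 on the log2 scale. Without WT replicate 1, 17 of the 20 were higher, beside 21.6% of all tested genes. Without both first replicates 18 were higher, beside 28.4% of all tested genes. Of the 20, 17 had their lowest KO value in KO replicate 1, as had 4730 of all 13575 tested genes.

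Targets of IRF1 were called in both directions. Of 13 tested, 4 were higher and 3 lower, with a median log2 fold change of -0.02. Of all tested genes 12.9% were higher and 6.11% lower. The chemokines Cxcl10 and Cxcl9 were at 18.1 ± 4.01 and 7.03 ± 2.50 TPM in KO, against 2.53 ± 0.95 and 0.50 ± 0.35 TPM in WT (SD, n = 3 each; limma adjusted p = 0.0113 and 0.0125). Gbp5, an interferon-induced GTPase, and B2m, the light chain of MHC class I, were higher by 0.77 and 0.17 on the log2 scale. Cxcl9 and Gbp5 were under 1 TPM in every WT library, so the filter on low values fixed their direction. The genes that fell belong to peptide supply for MHC class I. Psmb8, an immunoproteasome subunit, averaged 479 ± 44.0 TPM in KO and 634 ± 12.8 TPM in WT (adjusted p = 0.0185). Tap2, a peptide transporter subunit, averaged 341 ± 22.1 TPM in KO and 477 ± 53.2 TPM in WT (0.0225), and Psmb10, another immunoproteasome subunit, fell by 0.24 on the log2 scale (0.0375).

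Of 10 tested targets of IRF8 in myeloid cells, 3 were higher, beside 12.9% of all tested genes, and 7 were not called. The median was 0.16 on the log2 scale, and 9 fold changes were positive. Fcgr1, the high-affinity Fc receptor, averaged 24.7 ± 8.34 TPM in KO and 2.93 ± 0.32 TPM in WT (SD, n = 3 each; limma adjusted p = 0.0113). Pml, the scaffold of nuclear bodies, averaged 20.3 ± 2.40 TPM in KO and 13.4 ± 0.79 TPM in WT (0.0195), and Trim21, a ubiquitin ligase and antibody receptor, at 13.2 ± 1.41 and 9.63 ± 0.59 TPM (0.0313). Without WT replicate 1, 5 of the 10 were higher, beside 21.6% of all tested genes. Of 4 tested cytokine targets of IRF5 1 was higher, Il1b, averaging 3.90 ± 1.49 TPM in KO and 0.20 ± 0.17 TPM in WT (0.0130). Il1b was under 1 TPM in every WT library, so the filter on low values fixed its direction. Without WT replicate 1, 3 of the 4 were higher, beside 21.6% of all tested genes.

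Genes of the granulocyte progenitor, the fate that IRF8 restrains in normal blood formation, were mostly higher in KO. Of 8 tested, 7 were higher, beside 12.9% of all tested genes, and Csf3r was not called, with a median log2 fold change of 0.53. Mpo, which encodes myeloperoxidase, was at 1018, 2311 and 2233 TPM in KO replicates 1 to 3, against 19.4, 127.6 and 83.8 TPM in WT replicates 1 to 3 (limma adjusted p = 0.0150). WT replicate 1, with the highest Irf8, had the lowest WT value of Mpo, Elane and Ctsg but the highest of Cebpa, Cebpe and Csf3r. The list thus had no common order among the WT libraries. KO replicate 1, with the highest Irf8 in KO, had the lowest KO value of 7 of the 8 genes. The same was true of 4730 of all 13575 tested genes. The part of Irf8 in these values was not tested. Elane and Prtn3, serine proteases of primary granules, were at 3162 ± 494 and 3223 ± 308 TPM in KO, against 1359 ± 205 and 2236 ± 129 TPM in WT (SD, n = 3 each; adjusted p = 0.0125 and 0.0153). Cebpe, a factor of late granulocyte maturation, averaged 610 ± 108 TPM in KO and 264 ± 42.5 TPM in WT (0.0142).

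**Figure D4:**
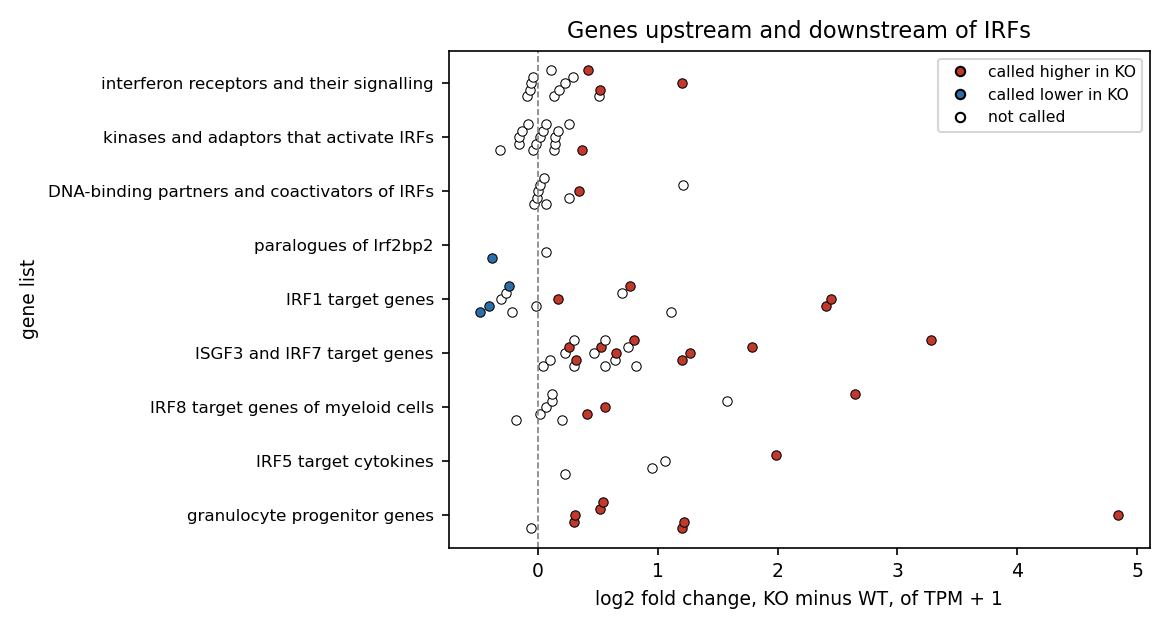
Log2 fold change (KO minus WT, of TPM + 1) of every tested gene in 9 lists of genes upstream and downstream of IRFs, 1 point per gene, red where called higher, blue where called lower and open where not called. The 20 tested targets of ISGF3 and IRF7 lie to the right of 0, and those of IRF1 lie on both sides.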

How the data were processed

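Polyadenylated RNA of 3 KO and 3 WT libraries was sequenced as stranded paired-end reads of 100 bp, per the labels' protocols. Trim Galore 0.4.2, cutadapt 1.9.1, STAR 2.6.1e, featureCounts 1.6.2 and mm10 are named in the submitters' processing notes. No source used here gives the gene annotation, the strand setting or the step from counts to TPM. The authors deposited TPM per gene symbol, rounded to 1 decimal, with sums of 999924 to 999935 per library, which holds no depth.

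A gene was tested if 3 or more libraries had 1 TPM or more (13575 of 35869). A gene could pass through KO alone, which fixed its direction. This held for Rsad2, Oasl2, Il1b, Cxcl9, Gbp5, Ifnlr1, H2-Aa, Cd79a and Col1a1. The model, run with limma 3.58.1 in R 4.3.3 on log2(TPM + 1), held genotype alone. It used a mean-variance trend, and the two-sided p-values were adjusted by Benjamini-Hochberg across every tested gene. Exact permutation tests of members used TPM. The fit was tested on simulated data. Members and gene lists were chosen with earlier results of these data known. From each list the text names all called genes where a direction had 4 or fewer, otherwise the 4 with the smallest adjusted p, besides Stat2, Spi1, Irf2bp1 and Irf2bpl, and the 3 genes most like a called member. Isg15, Ly6g, Ifnz, Csf3r, Cebpa, Ctsg and the overlapping neighbours fall outside this rule, as do markers and interferon genes named by level or by call. Azu1 of the granulocyte list had no row. Some genes the rule or the lists hold are not reported here. Alternatives were pseudocounts of 0.1, 0.5 and 5, all genes unfiltered, an average of 5 TPM or more, median-of-ratios scaling, quantile normalization, array weights, no trend, the replicate number as a block, and leaving out libraries.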

Additional observations from a re-analysis of the deposited data

How the results depend on the processing

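The count of called genes, 2575 as reported, was 525 without the filter on low values, 1578 at a mean of at least 5 TPM, 9429 with array weights (whose estimate did not converge), 333 with a replicate block and 7569 without KO replicate 1 and WT replicate 1 together. It lay between 0 and 4850 with 1 library left out. The count of called members, 1 as reported, was 0 without the filter (limma, with 1 at an unadjusted p under 0.05), 3 with array weights, 3 without both first replicates, and between 0 and 2 with 1 library left out. Irf8 stayed lower in all 17 alternatives, with log2 fold changes from -1.38 to -0.95 and limma adjusted p from 6.07e-05 to 0.124. The lowest of these adjusted p came from the fit with array weights. It was not called without the filter (-1.11, adjusted p = 0.105) or without KO replicate 2 or 3 or WT replicate 2 or 3 (-0.95 to -1.17), and ranged from -1.38 to -0.95 with 1 library left out. Irf7 was called with array weights (1.26) and without both first replicates (1.37), had 0.50 to 1.20 with 1 library left out, and could not be tested at a mean of at least 5 TPM. Irf2bp2 was called with array weights and without both first replicates (-0.15 in both). Irf2 turned to -0.02 with median-of-ratios scaling and -0.11 with quantile normalization, and ranged from -0.05 to 0.13 with 1 library left out, Irf9 from -0.02 to 0.20 and Irf2bpl from -0.07 to 0.26. None of these sign changes involved a called value. Higher calls made up 1745 of 2575 as reported, 1675 of 3289 with median-of-ratios scaling and 1346 of 3068 with quantile normalization.

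The labels do not say what an equal replicate number means. The deviations of KO and WT libraries from their group means had correlations of -0.199, -0.145 and -0.164 for numbers 1, 2 and 3. Deviations within a group of 3 sum to 0, so these correlations cannot decide whether samples were paired. With the replicate block in limma, Irf8 had an SE of 0.14, against 0.23 as reported, and an adjusted p of 0.0497. The cause of these changes was not tested. TPM without the exact depth of each library, rounded to 1 decimal, limits the values of Irf4, the interferon genes and other genes near 0.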
